A study of Homo sapiens with 16 samples.

Results

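The cyclins and cyclin-dependent kinases that drive the cell division cycle were examined in bladder cancer cells treated with CM-1758, a histone deacetylase inhibitor. The 10 genes were taken by symbol from a table of 35993 genes: the D-type cyclins CCND1, CCND2 and CCND3, the E-type cyclins CCNE1 and CCNE2, the A-type cyclin CCNA2, and the kinases CDK4, CDK6, CDK2 and CDK1. All 10 members were present in the table and passed the filter on low counts. RNA of 4 established human lines from bladder cancer (253J and J82, with RT112 and TCCSUP) was sequenced in 16 libraries, 2 for each of 8 groups. Treated cells of each line received CM-1758 for 48 h at the concentration that had halved the growth or survival readout of that line (its IC50), and control cells received the vehicle, 0.01% DMSO. All cells were labelled wild type. 253J, J82 and RT112 were grown in DMEM and TCCSUP in EMEM, both with serum, so medium and line cannot be told apart, and the dose differed by line. The comparison asked how CM-1758 changed transcript levels in each line.

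Cyclins are the regulatory subunits that switch on cyclin-dependent kinases, and most of them are made and destroyed once per cycle. D-type cyclins with CDK4 or CDK6 phosphorylate the retinoblastoma protein in G1 and release E2F factors, which drive transcription of E-type cyclins, CCNA2 and CDK1 among others. Cyclin E with CDK2 carries the cell into S phase, cyclin A with CDK2 and then CDK1 takes it through S phase and G2, and cyclin B with CDK1 starts mitosis. Many bladder tumours carry changes in this G1 machinery, and histone deacetylase inhibitors are known to halt the cycle in cultured cancer cells.

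Libraries held 27655401 to 32537104 counts in control cells (median 29363076) and 22506431 to 31547585 in treated cells (median 23590242), and the 10 members took 0.0642 to 0.162% of them. Values are given as CPM, a gene's counts scaled to a common library size, after trimmed-mean (TMM) scaling, and changes as log2 fold changes of CM-1758 over control ± SE from the quasi-likelihood test of edgeR, adjusted by the Benjamini-Hochberg method over 21297 tested genes. A gene was called at an adjusted p under 0.01. With no TMM scaling, the median change of all genes moved from 0.10 to 0.37 on the log2 scale in 253J, from 0.05 to 0.19 in J82, from 0.12 to 0.27 in RT112 and from 0.20 to 0.51 in TCCSUP, so small changes depend on the scaling. Replicates of a group correlated at Pearson r of 0.983 to 0.991 over genes, and the 2 J82 control libraries differed most beyond counting noise. The cell type was checked with 11 urothelial and epithelial markers, of which 6 to 10 reached 1 CPM in each group. Keratins KRT8, KRT18 or KRT19 led in every group, while the uroplakin UPK3A was at 0 counts in every group but treated TCCSUP.

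Members of the family were called with CM-1758 in all 4 lines, and the pattern differed by line. The members called higher, and in J82 also those called lower, were near or below the share of all genes. In 253J, where 39.5% of all tested genes were called, 5 members fell and 2 rose, and 18.1% of all genes were lower and 21.4% higher. In J82, 2 fell and 2 rose, against 13.3% and 17.4% of all genes (30.7% in either direction). In RT112, 4 fell and 1 rose, against 14.7% and 20% (34.7% together). In TCCSUP, 5 fell and 2 rose, against 17.2% and 23.7% (40.9% together). Over the 40 gene and line pairs, 16 were lower and 7 higher. For 253J, J82, RT112 and TCCSUP the median log2 fold change of the members was -0.49, 0.10, -0.44 and -0.52, beside 0.10, 0.05, 0.12 and 0.20 for all tested genes. CCNA2 fell in all 4 lines, as did 3.69% of all genes, and no member rose in all 4, where 3.98% of all genes did. With the stricter limit of a log2 fold change beyond 2, 2 members were lower in 253J and 2 in TCCSUP (3.5% and 3.31% of all genes), and 1 was higher in each of J82, RT112 and TCCSUP (8.81%, 11.4% and 14.2%), with 0 higher in 253J (9.43%). Several counts changed when 1 library was left out. Such a fit leaves 1 library in a group and called fewer of all tested genes in that line, so a lost call is not particular to the members. Without 253J control replicate 2, or without 253J CM-1758 replicate 3, 3 members fell in 253J, and without J82 control replicate 1, 4 fell in J82. Without RT112 CM-1758 replicate 2, 2 fell in RT112. The 2 that rose in 253J became 1 or 0 without any of its 4 libraries, and in J82 they became 1 without either control library or without CM-1758 replicate 3.

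**Figure D1:**
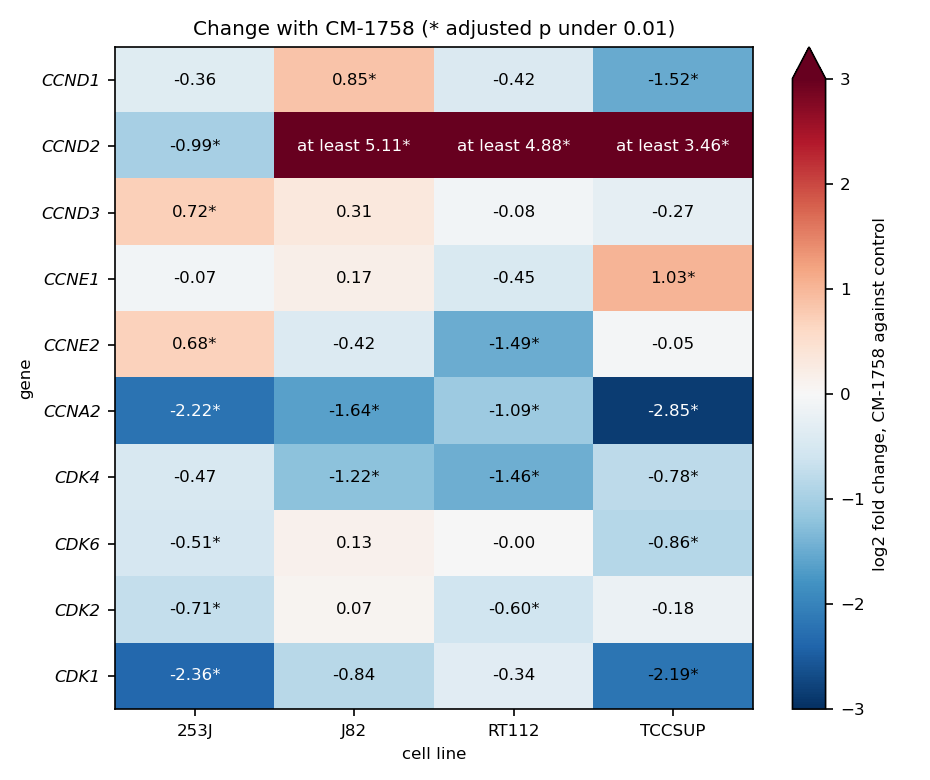
Log2 fold change of each of the 10 members (rows) with CM-1758 in each cell line (columns), with blue lower and red higher than control and asterisks for an adjusted p under 0.01. CCNA2 is blue with an asterisk in all 4 lines, at -2.22, -1.64, -1.09 and -2.85. The CCND2 cells marked "at least" are lower bounds for the treated mean, because both control libraries held 0 counts.

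Among the D-type cyclins, which couple growth signals to the start of the cycle, CCND1 moved in opposite directions in 2 lines. In J82, CCND1 stood at 508 and 540 CPM in the control libraries and at 921 and 962 CPM in the treated ones, so the groups were well apart. This rise of 0.85 ± 0.20 on the log2 scale had an adjusted p of 0.00282, and it missed the limit (adjusted p 0.0109 to 0.0175) when either control library or CM-1758 replicate 3 was left out. In TCCSUP, CCND1 was 269 and 270 CPM in control and 91.2 and 96.9 CPM in treated cells. The fall was 2.87-fold, a log2 fold change of -1.52 ± 0.20 (adjusted p 1.78e-05). In 253J the control libraries held 82.1 and 59.7 CPM and the treated ones 68.3 and 42.1 CPM, and these overlapped. Leaving out 1 library of 253J gave changes of -0.75 to -0.054, and the change was called without CM-1758 replicate 1 (adjusted p 0.00726). In RT112 they held 188 and 210 CPM against 159 and 138 CPM, with no overlap but no call (-0.42 ± 0.20, adjusted p 0.0904). The difference in change between lines passed its own test (adjusted p 6.78e-05), and J82 differed from each of the other lines (adjusted p 0.00413, 0.00419 and 2.99e-05 against 253J, RT112 and TCCSUP). In control cells CCND1 was highest in J82, then TCCSUP and RT112, and lowest in 253J, and TCCSUP and RT112 did not pass the test of a difference (adjusted p 0.0754). LTO1 overlaps CCND1 on the opposite strand, at 221 to 690 counts over the libraries, and the part of shared reads in the CCND1 counts was not tested.

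CCND2, a D-type cyclin with tissue-restricted use, was the most line-dependent member. In control cells it was found only in 253J, at 174 and 150 CPM, and both control libraries of J82, RT112 and TCCSUP held 0 counts, which allows up to 0.112, 0.0999 and 0.117 CPM in them at 3 counts per library. After CM-1758, CCND2 in 253J was 80.6 and 82.5 CPM, a fall of 1.99-fold (-0.99 ± 0.18, adjusted p 0.000661). In the other 3 lines it appeared. J82 held 2.97 and 4.74 CPM (83 and 140 counts), with a mean 34.6-fold above the most that control allows. RT112 held 3.21 and 2.67 CPM (82 and 70 counts), with a mean 29.4-fold above it. TCCSUP held 1.12 and 1.46 CPM (30 and 37 counts), with a mean 11-fold above it. The adjusted p was 6.46e-07, 9.16e-07 and 1.29e-05 in these lines. Even so, every treated library of J82, RT112 and TCCSUP stayed far below every 253J library. The change differed between 253J and each other line, with adjusted p from 6.96e-07 to 1.25e-05. The antisense gene CCND2-AS1 on the opposite strand was at 0 counts in all 12 libraries of J82, RT112 and TCCSUP. AC008012.1, annotated as a protein-coding gene on the same strand, also overlaps CCND2, and no counts of it are given here. The part of shared reads in the CCND2 counts was not tested.

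CCND3, the third D-type cyclin, changed in 1 line. In 253J it went from 22.6 and 20.3 CPM to 41.0 and 29.8 CPM, a rise of 1.65-fold (0.72 ± 0.16, adjusted p 0.00175), which missed the limit without control replicate 3 (adjusted p 0.0232) or without CM-1758 replicate 1 (0.0374). Levels were 47.6 and 47.3 against 56.1 and 61.1 CPM in J82. In RT112 they were 41.5 and 49.5 against 45.9 and 40.0 CPM, and in TCCSUP 69.0 and 66.7 against 60.9 and 51.5 CPM. None of these passed the test, and in RT112 and TCCSUP the sign of the change turned with the scaling. The change differed between lines (adjusted p 0.00816), but this call was lost in 11 of the 16 fits that left out a library. In control cells CCND3 was highest in TCCSUP and lowest in 253J, which lay below each of the other lines, and neither TCCSUP and J82 (adjusted p 0.0143) nor J82 and RT112 (0.826) passed the test of a difference.

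Levels of different genes were set side by side only per kilobase of exon, with lengths from a newer build's annotation, so shares are approximate. On this scale CCND2 made up 53.9% ± 2.1 (SD, n = 2) of the D-type transcripts in 253J control cells, CCND1 34.4% ± 2.9 and CCND3 11.7% ± 0.74. After CM-1758 they made up 37.6% ± 7.2, 36.2% ± 5.9 and 26.2% ± 1.3. CCND1 held most of the pool in the other lines, with 90.8% in J82, 79.7% in RT112 and 78.1% in TCCSUP control cells. In treated cells it held 93.3%, 74.8% and 59.7%. In TCCSUP, the CCND3 share went from 21.6 and 22.3% in the control libraries to 37.0 and 42.5% in the treated ones, so the groups did not overlap.

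**Figure D2:**
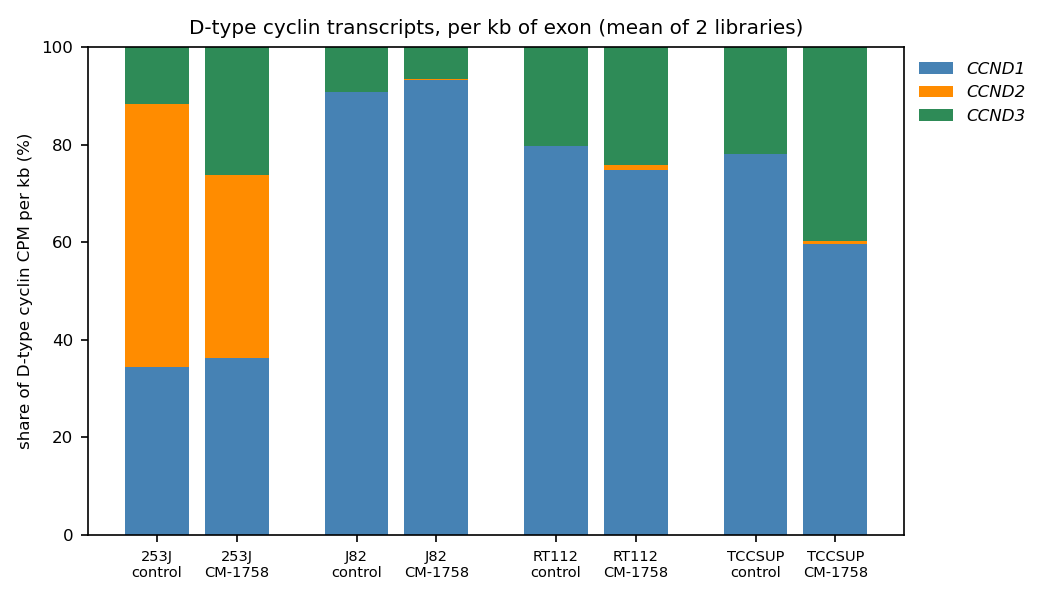
Share of the 3 D-type cyclins (%) in their summed CPM per kilobase of exon, as the mean of 2 libraries in each of 8 groups. CCND2 is a large part of the bar in 253J alone, at 53.9% in control and 37.6% in treated cells, and CCND1 fills most of the J82 bars, at 90.8% and 93.3%.

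CDK4 and CDK6 are the catalytic partners of the D-type cyclins, and CDK4 was the more uniformly lowered of the 2. In J82, CDK4 went from 202 and 236 CPM to 92.0 and 95.8 CPM, a fall of 2.33-fold (-1.22 ± 0.17, adjusted p 5.15e-05). In RT112 it went from 88.0 and 77.2 CPM to 30.5 and 29.5 CPM, a fall of 2.75-fold (-1.46 ± 0.18, adjusted p 1.05e-05). In TCCSUP it went from 95.0 and 122 CPM to 52.6 and 73.9 CPM, a fall of 1.71-fold (-0.78 ± 0.17, adjusted p 0.0015), which missed the limit without control replicate 2 (adjusted p 0.0293) or CM-1758 replicate 1 (0.0318) and with no TMM scaling (-0.46, adjusted p 0.0277). In 253J, 162 and 139 CPM stood against 113 and 104 CPM with an adjusted p of 0.0307. The groups did not overlap in any line. The difference in change between lines just missed the limit (adjusted p 0.0119) and passed it with DESeq2 (0.00196) and with no TMM scaling (0.00337). TSPAN31 overlaps CDK4 on the opposite strand, and the strand setting of the counting is not given in the sources used here. TSPAN31 counts were lower in treated cells in 3 lines, at 2436 to 2632 in control against 1715 to 2276 in treated 253J cells, 1917 to 1919 against 1057 to 1070 in RT112 and 1185 to 1384 against 698 to 857 in TCCSUP. In J82 they were higher, at 1045 to 1122 against 1923 to 2040. The part of shared reads in the CDK4 counts was not tested.

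CDK6 fell in TCCSUP, from 155 and 138 CPM to 81.8 and 80.4 CPM (-0.86 ± 0.15, 1.81-fold, adjusted p 0.000203). In 253J, which had the highest level, it fell from 404 and 370 CPM to 290 and 255 CPM (-0.51 ± 0.15, adjusted p 0.00916), and that call was lost without any 1 of the 4 libraries of 253J (adjusted p 0.0157 to 0.0816) and with other scalings. In J82 it was 175 and 229 CPM against 228 and 213 CPM, and in RT112 93.9 and 83.2 CPM against 89.7 and 87.3 CPM, with overlapping groups in both. The change differed between lines (adjusted p 0.00325), and this call was lost without TCCSUP control replicate 1 (0.0157), CM-1758 replicate 1 (0.0124) or CM-1758 replicate 2 (0.0138). TCCSUP differed from J82 (adjusted p 0.00327) and from RT112 (0.00631). In control cells the order was 253J, J82, TCCSUP and RT112, with every pair apart but J82 and TCCSUP (adjusted p 0.0168).

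The E-type cyclins, which activate CDK2 at the entry to S phase, moved separately from each other. CCNE1 rose in TCCSUP, from 21.4 and 20.1 CPM to 44.6 and 40.2 CPM (2.04-fold, 1.03 ± 0.14, adjusted p 1.80e-05), and passed no test in the other lines. It was 25.5 and 22.8 against 22.4 and 23.4 CPM in 253J and 33.7 and 39.6 against 39.8 and 42.7 CPM in J82. In RT112 it was 18.2 and 21.0 against 14.3 and 14.3 CPM, below control in both libraries (-0.45 ± 0.14, adjusted p 0.0139). CCNE1 changed in TCCSUP differently from 253J, J82 and RT112 (adjusted p 0.000532, 0.00439 and 4.70e-05). In control cells CCNE1 was higher in J82 than in each of the other lines, which did not pass the test between themselves.

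CCNE2 fell in RT112, from 43.0 and 44.7 CPM to 15.0 and 16.3 CPM (2.80-fold, -1.49 ± 0.16, adjusted p 4.58e-06). In 253J it was scarce in control cells, at 4.85 and 4.37 CPM, and rose to 6.81 and 7.96 CPM (1.60-fold, 0.68 ± 0.18, adjusted p 0.00564), but this call was lost when control replicate 2, control replicate 3 or CM-1758 replicate 3 was left out (adjusted p 0.0193, 0.0477 and 0.0567). In J82 it was 73.7 and 106 against 69.9 and 64.4 CPM (adjusted p 0.0404). The J82 change was -0.66 without control replicate 1 (adjusted p 0.00194) and -0.13 without control replicate 3 (adjusted p 0.518). In TCCSUP it was 78.4 and 83.2 against 74.7 and 81.6 CPM, and overlapped. RT112 differed in change from 253J, J82 and TCCSUP (adjusted p 1.23e-05, 0.00317 and 0.000219). In control cells, the CCNE2 level of 253J was 17.5-fold below that of TCCSUP and 19.5-fold below that of J82, while J82 and TCCSUP did not pass the test of a difference (adjusted p 0.453). INTS8 and NDUFAF6 overlap CCNE2 on the opposite strand. In 253J, INTS8 held 1562 to 2023 counts in control and 2022 to 2675 in treated cells, beside 114 to 134 and 172 to 236 for CCNE2. NDUFAF6 held 729 to 743 and 408 to 471 there. The part of shared reads in the CCNE2 counts was not tested.

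CDK2, the kinase partner of cyclins E and A, fell in 2 lines. It fell in 253J from 79.7 and 70.4 CPM to 52.6 and 39.4 CPM (-0.71 ± 0.15, adjusted p 0.00119), and without control replicate 2 or CM-1758 replicate 3 missed the limit (0.0163 and 0.0245), as it did with no TMM scaling (0.0172). In RT112 it fell from 111 and 105 CPM to 71.1 and 71.7 CPM (-0.60 ± 0.15, adjusted p 0.00447), and missed the limit without any 1 of the 4 RT112 libraries (adjusted p 0.0178 to 0.0352). It also missed it with RLE size factors (0.0108), with no TMM scaling (0.0166) and with at least 10 counts in every library (0.0122). In J82 it was 100 and 123 against 114 and 121 CPM, and in TCCSUP 110 and 115 against 105 and 94.4 CPM. CDK2 shares a stretch of the opposite strand with PMEL, a pigment-cell gene whose counts went from 45 to 78 in control to 4030 to 5868 in treated 253J cells and from 100 to 104 to 5864 to 6970 in RT112. Its part in the CDK2 counts was not tested. In J82, PMEL went from 14 to 20 counts to 763 to 1503, and in TCCSUP from 20 to 23 to 2095 to 3209.

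CCNA2, the cyclin of S phase and G2, was the only member that fell in every line. In 253J it was 118 and 87.4 CPM in control and 26.6 and 17.7 CPM in treated cells (4.64-fold lower, -2.22 ± 0.24, adjusted p 2.51e-06). In J82 it was 114 and 167 against 50.6 and 39.9 CPM (3.11-fold lower, -1.64 ± 0.23, adjusted p 5.68e-05). In RT112 it was 92.6 and 90.3 against 49.7 and 36.4 CPM (2.12-fold lower, -1.09 ± 0.23, adjusted p 0.00134). This RT112 call missed the limit without CM-1758 replicate 2 (-0.88, adjusted p 0.0254). In TCCSUP it was 86.6 and 101 against 12.4 and 13.7 CPM, the largest fall of any member (7.20-fold, -2.85 ± 0.25, adjusted p 3.55e-07). No treated library reached the lowest control library of its line. The size of the fall differed between lines (adjusted p 0.00228, and 0.0118 without TCCSUP CM-1758 replicate 1), and the fall in TCCSUP exceeded that in RT112 by 1.76 on the log2 scale (adjusted p 0.000985). Control levels, 91.4 to 140 CPM, did not pass the test of a difference between lines (adjusted p 0.0605). EXOSC9 overlaps CCNA2 on the opposite strand. Its counts went from 968 to 1238 in control to 960 to 1022 in treated 253J cells and from 596 to 597 to 390 to 412 in RT112. They went from 877 to 1145 to 1446 to 1641 in J82 and from 1012 to 1147 to 1456 to 1461 in TCCSUP. The part of shared reads in the CCNA2 counts was not tested. In bulk RNA, a smaller share of cells in the phases that express a gene and less of its RNA per cell cannot be told apart.

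CDK1, the kinase that starts mitosis with cyclin B, fell in the lines in which CCNA2 fell most and passed no test in the others. In 253J it was 208 and 153 CPM in control and 46.7 and 23.8 CPM in treated cells (5.14-fold lower, -2.36 ± 0.27, adjusted p 4.87e-06). In TCCSUP it was 244 and 255 against 52.4 and 56.6 CPM (4.57-fold lower, -2.19 ± 0.27, adjusted p 9.75e-06). In J82, 120 and 175 CPM stood against 92.9 and 72.0 CPM (-0.84 ± 0.26, adjusted p 0.017). The J82 change was -1.09 without control replicate 1 (adjusted p 0.0072) and -0.54 without control replicate 3 (adjusted p 0.161). In RT112, 215 and 219 CPM stood against 191 and 151 CPM (-0.34 ± 0.26, adjusted p 0.292). The approximate 95% interval of the RT112 change ran from -0.85 to 0.16, so a fall like those in 253J and TCCSUP lies outside it. The difference between lines was called (adjusted p 0.000638), and RT112 differed from 253J (0.000818) and TCCSUP (0.00161). Marker sums moved too in 253J, RT112 and TCCSUP, but most epithelial markers were not called. Of these 11, 2 were lower and 1 higher in 253J, 1 and 2 in J82, 1 and 1 in RT112 and 2 and 0 in TCCSUP. Of 7 other markers, 0 and 1, 0 and 0, 1 and 3, and 3 and 1 were called in these lines. Of all tested genes, 18.1, 13.3, 14.7 and 17.2% were lower and 21.4, 17.4, 20 and 23.7% higher. The summed CPM of the 11 epithelial markers went from 3187 to 4338 in control to 1858 to 2351 in treated 253J cells, from 7780 to 8172 to 5975 to 6819 in RT112 and from 1329 to 1449 to 507 to 592 in TCCSUP. In J82 it was 5968 to 8102 in control and 6970 to 7890 in treated cells. The sum of 7 leukocyte, endothelial and fibroblast markers went from 386 to 397 CPM to 57.8 to 60.0 CPM in TCCSUP, led by DCN and PDGFRB, with CD3E at 0 counts in control. In control and treated cells that sum was 0.153 to 0.362 and 1.19 to 2.16 CPM in 253J, 39.2 to 45.9 and 40.8 to 57.4 CPM in J82, and 4.28 to 4.30 and 7.44 to 8.57 CPM in RT112. Their part in the CCNA2 and CDK1 results was not tested.

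**Figure D3:**
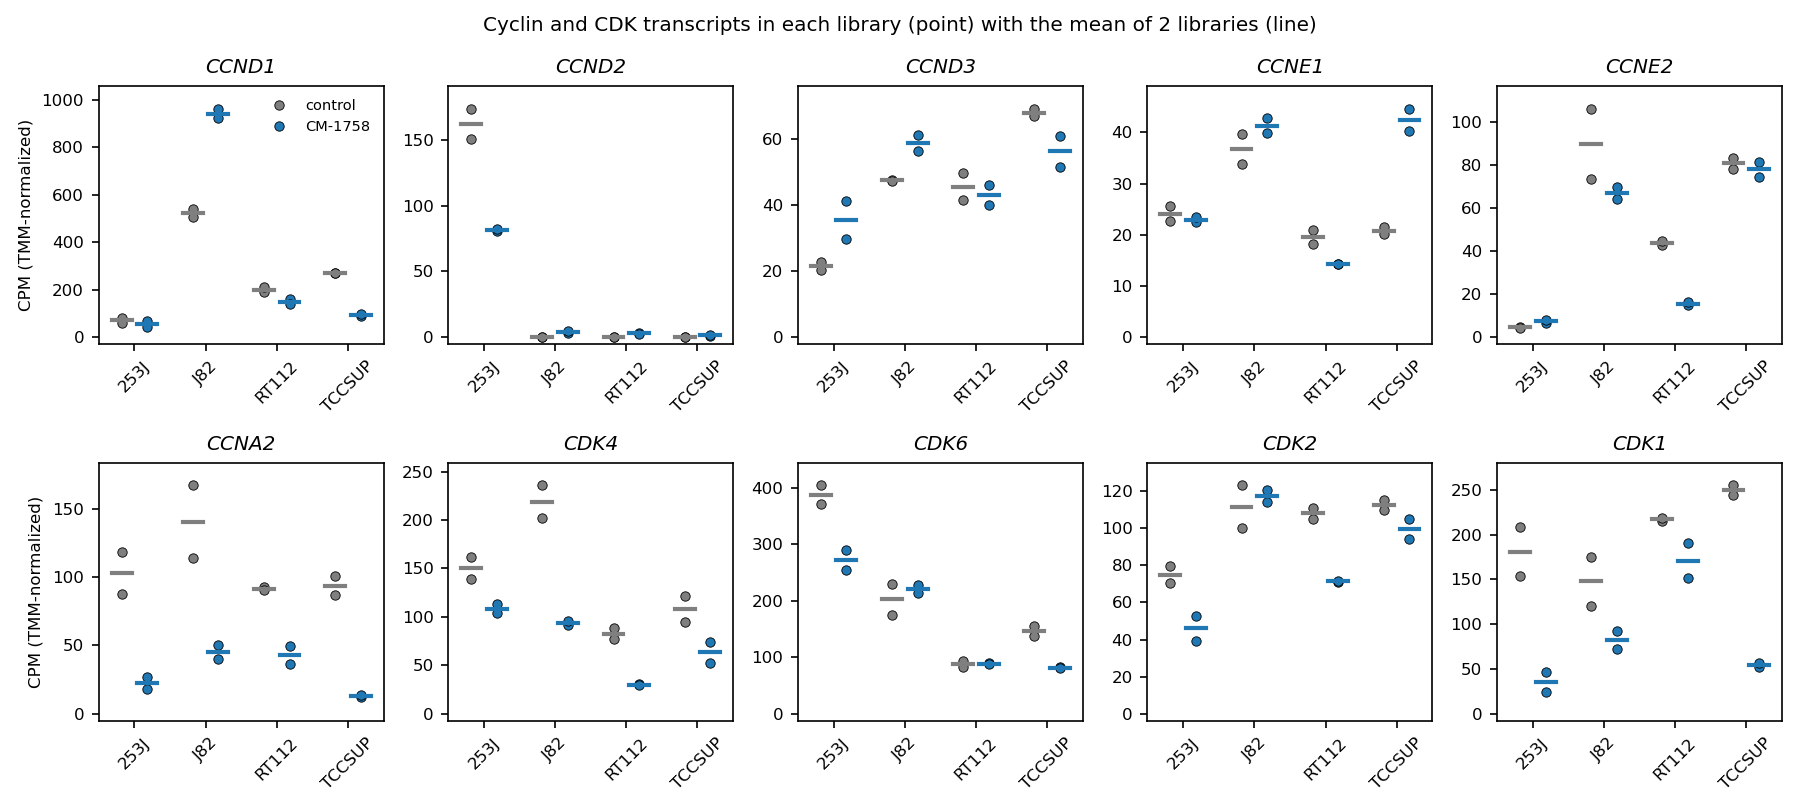
TMM-normalized CPM (vertical axis, linear) of each member in every library, control in grey and CM-1758 in blue, with lines at the means of 2 libraries per group. CCNA2 points are lower in blue in every cell line, and CCND2 lies at 0 in the control libraries of J82, RT112 and TCCSUP.

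The promoters of the 2 members with the largest falls, CCNA2 and CDK1, are shown because these genes moved together, with a Pearson r of log2 CPM of 0.825 over the 16 libraries, a description only. Each sequence is the 250 bases before the start in RefSeq (GRCh38.p14), CCNA2 at chr4:121823884-121824133 on the minus strand and CDK1 at chr10:60778081-60778330 on the plus strand. Capitals mark matches, on either strand, to the CCAAT box (letters CCAAT, or ATTGG when read from the other strand) and, in CDK1, to the cell cycle homology region (TTTGAA or TTCGAA).
CCNA2: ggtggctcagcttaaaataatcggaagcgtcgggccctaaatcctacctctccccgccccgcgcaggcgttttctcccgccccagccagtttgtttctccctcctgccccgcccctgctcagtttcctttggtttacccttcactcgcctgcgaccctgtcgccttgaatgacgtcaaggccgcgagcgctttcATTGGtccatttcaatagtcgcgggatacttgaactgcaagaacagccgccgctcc
CDK1: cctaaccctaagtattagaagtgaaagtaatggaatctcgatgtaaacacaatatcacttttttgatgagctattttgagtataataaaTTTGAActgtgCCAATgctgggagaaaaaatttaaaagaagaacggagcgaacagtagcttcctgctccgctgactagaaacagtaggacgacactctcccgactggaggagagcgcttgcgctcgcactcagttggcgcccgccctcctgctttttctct
The CCAAT box lay 56 bases before the start in CCNA2 and 150 bases before it in CDK1, and 32% of all 35116 promoters of this length hold one. The exact letters searched for the cell cycle homology region were matched in CDK1 alone, 161 bases before the start, and by 14.3% of all promoters. Of the 10 members, 6 had a promoter in the table (CCND3, CCNE1, CCNA2, CDK1, CDK4 and CDK6). All 6 held a GC box (GGGCGG, 42.6% of all promoters, not capitalised above), 2 a CCAAT box, and none an E2F motif (TTTCCCGC, TTTGGCGC, TTTCGCGC or TTTGCCGC, 2.79%) or a TATA box (TATAAA, 10.7%). A match is only a string of letters here. Variants of these letters were not searched, so a promoter with no match may still hold a related site.

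Ratios of 2 members within a library do not depend on library scaling, and 4 were tested by an exact permutation of treatment labels within each line, 2-sided over all arrangements, where the smallest possible p was 0.00154. The log2 ratio of CDK2 to CDK1 rose by 1.10 on average over the 4 lines (adjusted p 0.037), with changes of 1.70 in 253J, 0.91 in J82 and 2.02 in TCCSUP but -0.24 in RT112. It stood at an adjusted p of 0.0556 to 0.0617 when J82 control replicate 1, J82 control replicate 3, J82 CM-1758 replicate 3 or RT112 CM-1758 replicate 2 was left out. CDK6 to CDK4 changed by 0.68 (adjusted p 0.0617), with 1.36 in J82 and 1.46 in RT112 and -0.04 and -0.07 in 253J and TCCSUP. CCND3 to CCND1 changed by 0.53 (adjusted p 0.0617) and CCNE2 to CCNE1 by -0.48 (adjusted p 0.0648), each in that direction in 3 of 4 lines. The ratios were read at a limit of 0.05, looser than the 0.01 used for genes. CDK2 to CDK1 passed only this looser limit, and the other 3 ratios passed neither.

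**Figure D4:**
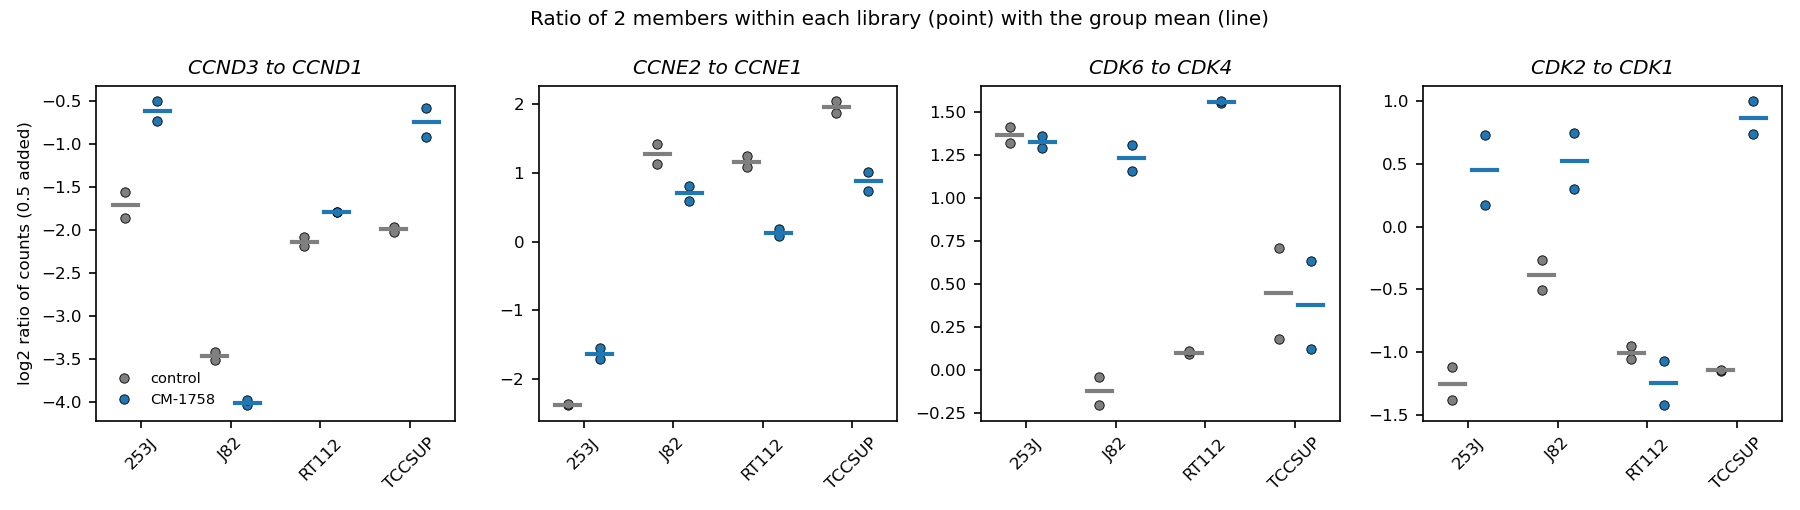
Log2 ratio of counts of 2 members (vertical axis) in each library, control in grey and CM-1758 in blue, with lines at the group means, for CCND3 to CCND1, CCNE2 to CCNE1, CDK6 to CDK4 and CDK2 to CDK1. The CDK2 to CDK1 points lie higher in blue in 253J, J82 and TCCSUP and lower in RT112, where the change was -0.24.

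Across the members, the change differed between lines in 8 of 10 (36.6% of all tested genes) and the control level in 8 of 10 (69.9% of all tested genes). CDK4 and CDK2 missed the limit for the change and CCNA2 and CDK1 for the control level. For CDK2 the difference in change had an adjusted p of 0.0181, and passed with DESeq2 (0.000859), which called all 10 members, and with at least 10 counts in every library (0.00743). Of 60 combinations of a member and a pair of lines, 23 differed in change and 31 in control level. Of all tested genes, 19.1, 19.2, 17.9, 12.7, 12.6 and 17.3% differed in change between 253J and J82, 253J and RT112, 253J and TCCSUP, J82 and RT112, J82 and TCCSUP, and RT112 and TCCSUP. For the control level the shares were 42.3, 43.8, 41.7, 41.9, 36.5 and 41%. Per kilobase of exon, CDK1 was the most abundant member in control cells of 253J, RT112 and TCCSUP, at 88.7, 107 and 122 CPM per kb, and CCND1 in J82, at 119 CPM per kb. CCNE2 was the scarcest in 253J, at 1.34 CPM per kb. After CM-1758, CDK1 stood at 17.3 CPM per kb in 253J and 26.8 in TCCSUP but at 83.9 in RT112.

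By the profile over the 16 libraries, on the log2 CPM scale, the tested genes nearest to CCNA2 were BIRC5 (r = 0.977), LMNB2 (0.976) and HMGB1P10 (0.976). KIF11 (0.975), BUB1B (0.961) and YAP1 (0.957) were nearest to CDK1. C1orf198 (0.969) was nearest to CCND1, SLITRK4 (0.977) to CCND2, DKK1 (0.938) to CCND3, ZMYND19 (0.928) to CCNE1 and EFEMP1 (0.971) to CCNE2. ABCE1 (0.958), TUBB6 (0.957) and PXMP2 (0.936) were nearest to CDK4, CDK6 and CDK2. Among the members themselves, CCND3 and CCNE2 had the highest correlation (0.866) and CCND2 and CCNE2 the lowest (-0.847). These values include the differences between lines and are descriptions.

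The rest of the pathway was read from 77 further genes, of which 76 were tested. In 253J 26 fell and 16 rose, which is 34.2% and 21.1% beside 18.1% and 21.4% of all tested genes. In J82 21 fell and 9 rose (27.6% and 11.8%, beside 13.3% and 17.4%). In RT112 17 fell and 9 rose (22.4% and 11.8%, beside 14.7% and 20%), and in TCCSUP 25 and 13 (32.9% and 17.1%, beside 17.2% and 23.7%). With no TMM scaling the counts were 23 and 24 in 253J, 13 and 16 in RT112 and 16 and 21 in TCCSUP. With TMM scaling, the median log2 fold change of the pathway genes was -0.18, -0.28, -0.05 and -0.32 in 253J, J82, RT112 and TCCSUP. Genes that passed in the same direction in all 4 lines numbered 7 lower and 1 higher of 76, beside 3.69% and 3.98% of all tested genes. The 7 were CKS1B (a subunit that binds CDKs), PKMYT1 (a kinase that inhibits CDK1), RBL1 (a relative of the retinoblastoma protein), TFDP1 (the partner of E2F factors), CUL1 (the scaffold of the ligase that degrades cyclin E), CCNT2 (a cyclin of transcription elongation) and CCNL2 (a splicing-linked cyclin). CKS1B changed by -2.27, -1.44, -0.995 and -2.39 on the log2 scale in 253J, J82, RT112 and TCCSUP. TFDP1 went from 61.7 ± 0.29 to 30.7 ± 1.7 CPM in 253J, and changed by -1.40, -1.15 and -0.76 in the others. CCNB3, a meiotic B-type cyclin, rose in all 4, from 0.248 ± 0.11 to 6.31 ± 0.24 CPM (SD, n = 2) in RT112 and from 3.86 ± 0.79 to 23.1 ± 5.0 CPM in 253J.

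The list of A- and B-type cyclins and mitotic activators had many falls outside RT112. For single pathway genes, a test of the difference in change between lines is not given here. A call in 1 line and not in another does not show such a difference. In 253J and in J82, 8 of 12 were lower and 2 higher, in RT112 2 and 2, and in TCCSUP 7 and 2. Over all tested genes, 18.1, 13.3, 14.7 and 17.2% were lower and 21.4, 17.4, 20 and 23.7% higher in 253J, J82, RT112 and TCCSUP. CCNB2, the partner of CDK1, went from 83.4 ± 1.7 to 10.8 ± 3.4 CPM in 253J and from 74.2 ± 3.9 to 6.96 ± 0.68 CPM in TCCSUP (log2 fold changes -2.95 and -3.41), and in RT112 was -0.58 with an adjusted p of 0.0424. PLK1, a mitotic kinase, fell by 2.91, 1.77 and 3.13 on the log2 scale in 253J, J82 and TCCSUP, and in RT112 was -0.34 (adjusted p 0.314). CDC25A, a phosphatase that activates CDK2, fell in 253J, J82 and RT112 by 2.14, 1.14 and 1.53 but was -0.40 in TCCSUP (adjusted p 0.134). CKS2, a close relative of CKS1B, rose in 253J from 112 ± 16 to 737 ± 25 CPM (2.72 ± 0.20, adjusted p 9.43e-08) and passed no test elsewhere.

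Among the CDK inhibitors, CDKN1A (p21) was called higher in 253J, J82 and TCCSUP and was not called in RT112. It went from 81.6 ± 9.6 to 199 ± 8.8 CPM in 253J, from 10.4 ± 3.7 to 110 ± 48 CPM in J82 and from 39.2 ± 3.7 to 181 ± 8.0 CPM in TCCSUP, with log2 fold changes of 1.29, 3.41 and 2.21. In RT112 it was 62.6 ± 3.6 and 74.8 ± 4.0 CPM (0.26, adjusted p 0.411). CDKN1C (p57) rose in J82, from 0.629 to 6.78 CPM, and in RT112, from 2.72 to 6.19 CPM. In the list of the retinoblastoma and E2F pathway, 8, 3, 4 and 3 of 13 genes fell in 253J, J82, RT112 and TCCSUP, and 1, 1, 0 and 2 rose. The falls were 61.5, 23.1, 30.8 and 23.1% of the list, beside 18.1, 13.3, 14.7 and 17.2% of all tested genes. The rises were 7.69, 7.69, 0 and 15.4%, beside 21.4, 17.4, 20 and 23.7%. E2F1, which activates the S phase genes, went from 48.5 ± 7.4 to 9.35 ± 3.6 CPM in 253J, and its log2 fold changes in 253J, J82 and RT112 were -2.38, -0.99 and -1.60. In TCCSUP, E2F1 was 55.4 ± 1.2 and 57.0 ± 1.4 CPM (adjusted p 0.895). CCNYL1, a relative of cyclin Y, rose by 2.17 in 253J, 2.01 in RT112 and 1.17 in TCCSUP.

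**Figure D5:**
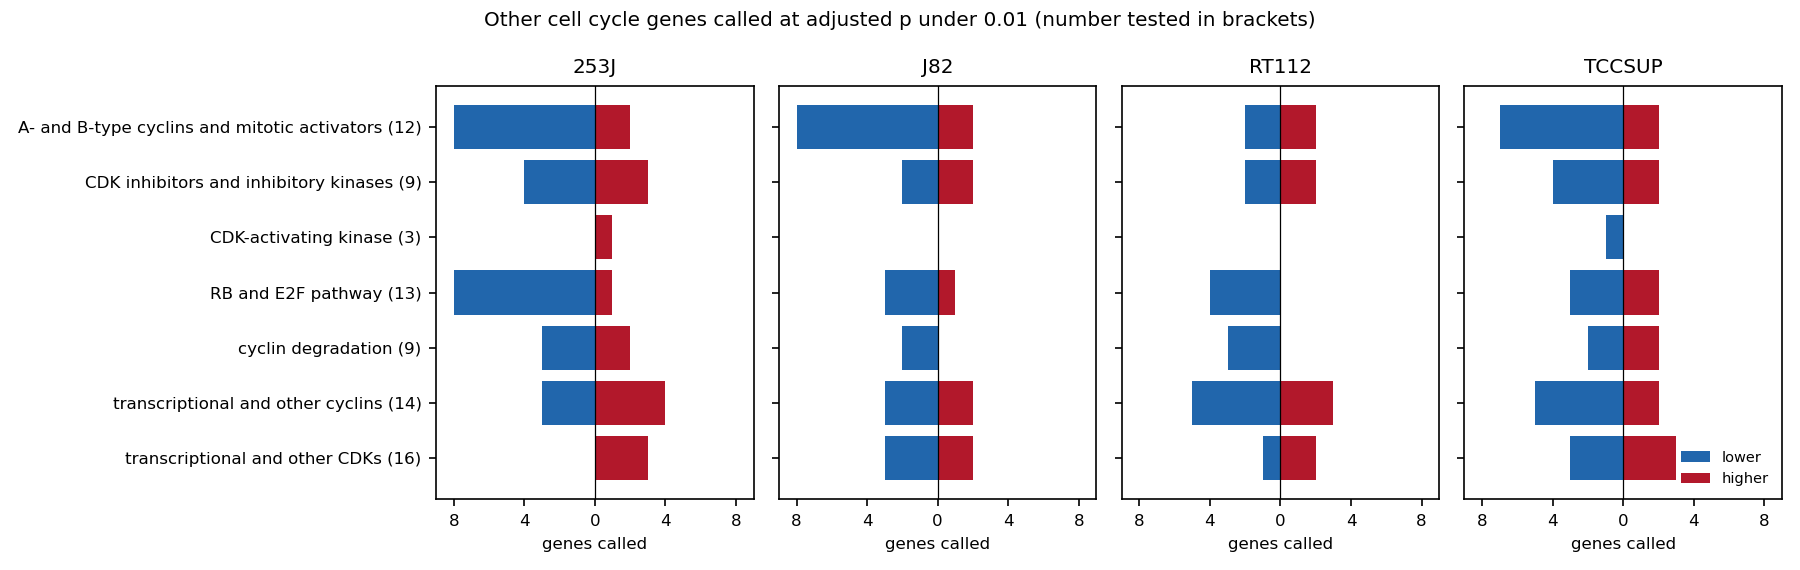
Number of other cell cycle genes called lower (blue, to the left) or higher (red, to the right) at an adjusted p under 0.01 in each cell line, by list, with the number tested in brackets. The top list, A- and B-type cyclins and mitotic activators, has 8 of 12 lower in 253J and J82, 7 in TCCSUP and 2 in RT112. Of all tested genes, 13.3 to 18.1% were lower.

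Of 14 transcriptional and other cyclins, 3, 3, 5 and 5 fell and 4, 2, 3 and 2 rose in 253J, J82, RT112 and TCCSUP. Of 16 other CDKs tested, 0, 3, 1 and 3 fell and 3, 2, 2 and 3 rose. Of 9 genes of cyclin degradation, 3, 2, 3 and 2 fell and 2, 0, 0 and 2 rose. The CDK-activating kinase had 1 of 3 subunits higher in 253J and 1 lower in TCCSUP. Of 9 CDK inhibitors and inhibitory kinases, 4, 2, 2 and 4 fell and 3, 2, 2 and 2 rose. Each of these counts is read beside all tested genes, of which 18.1, 13.3, 14.7 and 17.2% fell and 21.4, 17.4, 20 and 23.7% rose. Without 1 control library, the pathway genes that rose numbered 4 in RT112 (control replicate 2) and 8 in TCCSUP (control replicate 1).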

How the data were processed

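The authors sequenced ribosomal RNA-depleted, stranded total RNA libraries and deposited raw whole-number counts per gene symbol. Their processing notes name HISAT2, StringTie and GRCh37, with no role or version. The counting step, its annotation and its strand setting are not given in the sources used here. The study's methods call the 2 libraries of a group independent biological replicates. The 16 columns were matched to samples by title. The members and the gene lists were chosen with earlier results of these data known. Counts were analysed with edgeR 4.0.16 in R 4.3.3 (filterByExpr, TMM, glmQLFit with 8 groups and 8 residual degrees of freedom, common biological coefficient of variation 0.153). Each line's contrast, the interaction and the control levels were tested by glmQLFTest, with Benjamini-Hochberg adjustment over 21297 genes. A gene with 0 counts in both controls is given a lower bound of its fold, with 3 counts per library as floor, which covers counting error only. The bound is the treated mean over that floor, with no allowance for the spread between treated libraries. Log2 CPM used a prior count of 2, and ratios added 0.5 to counts. Named pathway genes were those called alike in all 4 lines and, per line, the 2 largest and 2 smallest changes among called genes with a mean log2 CPM above 0. One further marker gene is not reported here. Scripts were tested on simulated data. Alternatives were other scalings, filters, limits, DESeq2 1.42.0, each line alone, a replicate block and leaving out each library. Promoters and motifs came from RefSeq tables, and lengths from GENCODE on GRCh38.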

Additional observations from a re-analysis of the deposited data

Results flagged for a closer look

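The change with CM-1758 differed between the 4 cell lines in 8 members, by edgeR's quasi-likelihood F test of the interaction with Benjamini-Hochberg adjustment over all tested genes. The adjusted p was 2.16e-07 for CCND2, 3.02e-05 for CCNE2, 6.78e-05 for CCND1, 0.000115 for CCNE1, 0.000638 for CDK1, 0.00228 for CCNA2, 0.00325 for CDK6 and 0.00816 for CCND3. At the limit of 0.01, 36.6% of all tested genes differed, so the count of 8 in 10 is read beside that share. The CCND3 call was lost in 11 of 16 fits that left out a library, and with the replicate block (adjusted p 0.0306). The CDK6 call was lost in 3 such fits, each without a TCCSUP library, and the CCNA2 call in 1. Groups held 2 libraries each, so no single library could be singled out as far from its group.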

How the results depend on the processing

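Limits: each group had 2 libraries, the doses differed by line, and small log2 changes moved with the scaling. Of the values for single members under other settings, 285 kept direction and side of the limit, 15 lost the call, 1 gained it and 15 changed sign, all of them uncalled. With a log2 fold change beyond 2, 2 members were lower in each of 253J and TCCSUP and 0 in J82 and RT112, and 0 were higher in 253J, 1 in J82 and 1 in TCCSUP. With no TMM scaling, 3 members fell in 253J, 16 pathway genes rose in RT112, and 16 fell and 21 rose in TCCSUP. With at least 10 counts in every library, 3 members fell in 253J, 1 rose in each of J82 and TCCSUP and 0 in RT112. The main fit called 8417, 6534, 7397 and 8713 of 21297 genes in 253J, J82, RT112 and TCCSUP, in either direction. With this filter 6446, 4697, 4868 and 5518 of 11984 were called, a larger share in each line, and the member counts are read beside it. Under this filter CCND2 was not tested, CDK6 in 253J lost its call (adjusted p 0.0148) and 14 pathway genes rose in RT112. With DESeq2, 18 pathway genes rose in RT112. With each line alone, members higher numbered 1 in 253J and 1 in J82, and pathway genes numbered 13 lower and 5 higher in J82. These fits called 8948 of 17258 genes in 253J and 3297 of 16756 in J82. At an adjusted p under 0.05, 4 members fell in J82.

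Signs turned in uncalled values. With no TMM scaling, the log2 fold change was 0.063 for CCND3 in RT112, 0.039 for CCND3 in TCCSUP, 0.20 for CCNE1 in 253J, 0.26 for CCNE2 in TCCSUP, 0.15 for CDK6 in RT112 and 0.13 for CDK2 in TCCSUP. With at least 10 counts in every library it was 0.045 for CCND3 in RT112, 0.0062 for CCNE1 in 253J, 0.10 for CCNE2 in TCCSUP and 0.13 for CDK6 in RT112. CDK6 in RT112 was also 0.077 with RLE size factors, 0.077 with DESeq2, 0.0029 with the line alone and 0.0013 with the replicate block.

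The replicate number as a block was not used in the report, since libraries of the same number did not deviate together in every line. Their r was 0.053, 0.22, 0.043 and 0.017 in 253J, J82, RT112 and TCCSUP. In 253J the arms shared only number 3, so its block change rests on 1 control and 1 treated library. A call lost there is not a test of pairing. With the replicate block, 0 members rose in 253J, the CDK2 change differed between lines (adjusted p 0.00618), and CCNE1 in 253J was 0.042. Calls for CCND3, CCNE2 and CDK6 in 253J were lost (adjusted p 0.0429, 0.0228 and 0.0368), and CDK1 in J82 was gained (0.00499). Control levels were not compared between lines under the block, and fits of each line alone cannot compare them.

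Leaving out 1 library of 253J gave 3 to 5 members lower and 0 to 1 higher, of J82 2 to 4 and 1 to 2, of RT112 2 to 3 and 1, and of TCCSUP 4 to 5 and 2. Pathway genes numbered 22 to 27 lower and 13 to 15 higher for 253J, 16 to 22 and 6 to 9 for J82, 12 to 13 and 4 to 7 for RT112, and 18 to 20 and 8 to 10 for TCCSUP. Members whose change differed between lines numbered 6 to 9, and whose control level differed 7 to 8. The mean log2 ratio of CDK2 to CDK1 ran from 1.03 to 1.17. Signs turned for CCND3 in RT112 (-0.20 to 0.051, and 0.013 without CM-1758 replicate 2), CCNE1 in 253J (-0.16 to 0.011), CCNE2 in TCCSUP (-0.11 to 0.014), CDK2 in J82 (-0.068 to 0.23), CDK6 in J82 (-0.056 to 0.33) and CDK6 in RT112 (-0.086 to 0.089). The control level of CDK2 lost its call in 10 of 16 such fits. The cause was not tested.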
